A study of Mus musculus with 6 samples.

Results

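The genes described here are 7 genes of red blood cells, the globin genes *Hba-a1*, *Hba-a2*, *Hbb-bs* and *Hbb-bt* together with *Alas2*, *Slc4a1* and *Hemgn*, in RNA from isolated mouse brain microvessels. They were chosen by name because 1 WT library was high for them, as a measure of blood left in the vessels, so their own values are given as a description without a test. Of the 7 names, 6 were among the 23183 gene symbols listed in every library, and *Hbb-bt* was not. *Hemgn* was listed at 0 in every library, and the other 5 passed a filter of a mean of at least 1 FPKM (fragments per kilobase of transcript, scaled to the mapped fragments of the library), as did 14247 genes in all.

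The microvessels came from C57BL/6 mice in which Tek drives Cre, a recombinase that removes DNA between loxP sites. The 3 mice with TEK-cre and Crif1 +/+ are called WT and the 3 mice with TEK-cre and Crif1 flox/flox are called TEKCRIF1 KO, or KO, with 1 library per mouse. All 6 mice therefore carried the Cre, and no mouse without it was compared. The age of these mice is not given in the sources used here, and the stated isolation (homogenization, a dextran spin and a cell strainer) names no flushing of blood from the vessels. Crif1 is a protein of the mitochondrial ribosome, and Tek, also called Tie2, is known to be active in blood-forming cells as well as in endothelium. Whether blood cells of the KO mice carried the deletion was not measured.

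Hemoglobin, the oxygen carrier of the red cell, is built from a pair of alpha chains and a pair of beta chains, each holding a heme. *Alas2* encodes the erythroid 5-aminolevulinate synthase, the mitochondrial enzyme that starts heme synthesis in red cell precursors. *Slc4a1* encodes band 3, the anion exchanger of the red cell membrane, and *Hemgn* encodes hemogen, a nuclear protein of red cell precursors. Mature mammalian red cells have no nucleus, but reticulocytes, the youngest cells in the circulation, still carry RNA, in which globin transcripts dominate. In whole-tissue RNA, fewer cells of a type and less RNA per cell cannot be told apart.

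The sequences of the paired globin genes are shown because only the sequence can tell the reads of a copy from those of its pair. On GRCm38 (mm10) with the GENCODE M21 annotation, *Hba-a1* lies at chr11:32283511-32284465 and *Hba-a2* at chr11:32296489-32297298, both on the plus strand. *Hbb-bs* lies at chr7:103826534-103828096 and *Hbb-bt* at chr7:103812524-103813996, both on the minus strand, and each of these 4 genes has 3 exons. The coding sequences of *Hba-a1* and *Hba-a2*, 426 bases without the stop codon, differed at 1 base, C381T (the base in *Hba-a1* first, counted from the A of the start codon). Those of *Hbb-bs* and *Hbb-bt*, 441 bases long, also differed at 1 base, C417T (the base in *Hbb-bs* first). The stretches around these bases, coding bases 352 to 411 of the alpha genes and 382 to 441 of the beta genes, follow 5′ to 3′, with the differing base in capitals.
Hba-a1: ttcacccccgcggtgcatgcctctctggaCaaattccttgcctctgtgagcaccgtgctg
Hba-a2: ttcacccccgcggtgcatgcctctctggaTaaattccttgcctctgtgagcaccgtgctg
Hbb-bs: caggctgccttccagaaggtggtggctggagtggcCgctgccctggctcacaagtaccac
Hbb-bt: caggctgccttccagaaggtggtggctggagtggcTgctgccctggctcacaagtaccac

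Of the 455 windows of 100 bases, the length of a read, along the *Hba-a2* transcript, 339 (74.5%) also occurred in the *Hba-a1* transcript. They made up 56.5% of the 600 windows of *Hba-a1*. For *Hbb-bs* and *Hbb-bt*, 331 windows were shared, 62.6% of 529 and 54.8% of 604. A read from a shared window cannot be assigned to 1 copy by its own sequence, so the copies are also given as sums. The windows stand for single reads, and the read from the other end of the same fragment was not considered.

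The bases before the RefSeq start sites are shown because *Hba-a1* and *Alas2* had their highest value in the same library. The 250 bases before the RefSeq start (GRCm38.p6) were read for 6 of the 7 genes, and 3 of them are printed here, the alpha and beta globin genes first and *Alas2* last. The 2 annotations differ in the start: in GENCODE M21 all 6 genes begin further upstream, so that each window overlaps the GENCODE gene, and that of *Hemgn* lies inside it. Capitals mark the words of 4 motifs known from erythroid and other promoters, searched on both strands: GATA (the words AGATAA and also TGATAA, the word AGATAG and finally TGATAG), the CACCC box, the CCAAT box and a TATA-like box (the word ATATAA and also the overlapping word TATAAA).
Hba-a1 (chr11:32283422-32283671, plus strand): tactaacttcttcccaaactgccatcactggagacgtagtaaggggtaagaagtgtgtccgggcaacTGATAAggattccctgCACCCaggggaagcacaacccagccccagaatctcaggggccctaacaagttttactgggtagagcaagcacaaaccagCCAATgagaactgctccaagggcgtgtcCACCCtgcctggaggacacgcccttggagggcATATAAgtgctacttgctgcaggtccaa
Hbb-bs (chr7:103827929-103828178, minus strand): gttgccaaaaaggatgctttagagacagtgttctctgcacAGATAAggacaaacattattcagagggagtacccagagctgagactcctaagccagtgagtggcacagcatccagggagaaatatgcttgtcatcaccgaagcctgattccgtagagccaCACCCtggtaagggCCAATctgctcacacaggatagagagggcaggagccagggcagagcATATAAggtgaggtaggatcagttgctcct
Alas2 (chrX:150547167-150547416, plus strand): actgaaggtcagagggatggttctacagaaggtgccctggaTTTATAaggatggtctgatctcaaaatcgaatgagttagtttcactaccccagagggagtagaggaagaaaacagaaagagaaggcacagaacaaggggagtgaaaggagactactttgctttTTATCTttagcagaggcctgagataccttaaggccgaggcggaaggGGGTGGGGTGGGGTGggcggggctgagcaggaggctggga

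A GATA word was present in 5 of the 6 windows, all but that of *Hbb-bt*, against 26.5% of 32851 mouse promoter windows of the same length. The CACCC box was present in 5, all but *Hemgn* (52% of all windows), and the CCAAT box in the 4 globin genes (33.8%). The TATA-like box was present in all 6 windows (16.7%). Over the 247 bases at which the upstream windows of *Hba-a1* and *Hba-a2* overlap after a shift of 3 bases, all 247 were identical. A match is a description of these letters only.

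The library depth, estimated from the spacing of the lowest FPKM values, ran from 6400000 to 11700000 fragments, so that for a 1 kb transcript the value of 3 fragments was 0.256 to 0.469 FPKM (counting error only). *Gadd45gip1*, the symbol under which Crif1 is listed, was lower in every KO mouse than in every WT mouse, 9.57 ± 1.78 against 16.9 ± 1.76 FPKM (± SD, n = 3 per group). The 10 endothelial markers summed to between 936 and 1303 FPKM in the 6 libraries, a sum led by *Cldn5*. Of the 10, 4 had a log2 fold change above 0 and 6 below, and 1 had an unadjusted p under 0.05, as had 5.88% of all genes. It was *Cdh5*, VE-cadherin, which was lower in every KO mouse than in every WT mouse, 43.8 ± 6.42 against 90.1 ± 3.02 FPKM (log2 fold change −1.03, limma p = 0.000303, adjusted p = 0.841, exact permutation p = 0.1). The 4 choroid plexus epithelium markers set KO 1 and KO 3 apart, with 8800 and 10515 FPKM against 2841 to 3319 FPKM in the other 4 libraries.

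*Hba-a1* was among the 31 highest of all 23183 genes in every library. Its level was 2215 FPKM in WT 1, 1359 FPKM in WT 2 and 1630.2 FPKM in WT 3. In the KO mice it was 2202 FPKM in KO 1, 1153 FPKM in KO 2 and 1081 FPKM in KO 3. WT 1 and KO 1 were the high libraries, with WT 1 1.01 times KO 1, and the groups overlapped. The highest and lowest library differed 2.05-fold, and the mean was 1735 ± 437 FPKM for the WT group and 1479 ± 628 FPKM for the KO group (± SD, n = 3 per group). The high value was not particular to the WT group for this gene.

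*Hba-a2*, the other alpha globin gene, had 254.8 FPKM in WT 2, 39.0 FPKM in KO 2 and 43.1 FPKM in KO 3. In WT 1, WT 3 and KO 1 it was listed at 0.0269, 0.0272 and 0.0287 FPKM. Those 3 values are below what 1 fragment is worth at the GENCODE length of this transcript, estimated as 0.154 to 0.282 FPKM in the 6 libraries. *Hba-a2* took 15.8% of the alpha globin FPKM in WT 2, 3.28% in KO 2 and 3.84% in KO 3. The 3 libraries with the highest *Hba-a1*, WT 1, KO 1 and WT 3, were the 3 in which *Hba-a2* was below this estimate.

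The sum of both alpha globin genes can still depend on the copy, since FPKM is scaled by a transcript length and the lengths that the authors used are not given in the sources used here. In GENCODE M21 they are 699 bases for *Hba-a1* and 554 for *Hba-a2*. The sum was 2215, 1614 and 1630.2 FPKM in WT libraries 1 to 3. It was 2202, 1192 and 1124 FPKM in KO libraries 1 to 3. On this sum WT 1 and KO 1 again stood above the other 4 libraries. KO 2 and KO 3 were the lowest, and the KO minus WT difference of the mean log2(FPKM + 1) was −0.33. Its size was less than the SD of 0.54 among the KO mice and more than the SD of 0.26 among the WT mice.

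Adult beta globin was listed mostly under *Hbb-b1* and *Hbb-b2*, the names of the major and minor beta chain genes of the diffuse haplotype, for which the annotation used here has no gene. C57BL/6 is known to carry the other haplotype, with *Hbb-bs* and *Hbb-bt*. *Hbb-bs* was listed at 0 in WT 1 and in the 3 KO mice, with 125.9 FPKM in WT 2 and 10.6 FPKM in WT 3. Against this, *Hbb-b1* had 4058, 3093 and 2999 FPKM in WT libraries 1 to 3, and 5281, 2501 and 1919 FPKM in KO libraries 1 to 3. *Hbb-bs* was therefore no more than 3.22% of the listed adult beta globin in any library. *Hbb-b2* followed *Hbb-b1*, from 465 FPKM in KO 3 to 1194 FPKM in KO 1, at a ratio of *Hbb-b1* to *Hbb-b2* between 3.91 and 4.46.

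The sum of *Hbb-b1*, *Hbb-b2* and *Hbb-bs* was 5097, 3912 and 3708 FPKM in WT libraries 1 to 3. The KO libraries 1 to 3 held 6475, 3104 and 2385 FPKM. KO 1, and not a WT mouse, had the most beta globin, and WT 1 came next. KO 3 had the least of both alpha and beta globin. Alpha and beta globin together were 1.69% of the summed FPKM in WT 1, 1.61% in KO 1 and 0.781% to 1.26% in the other 4 libraries.

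**Figure D1:**
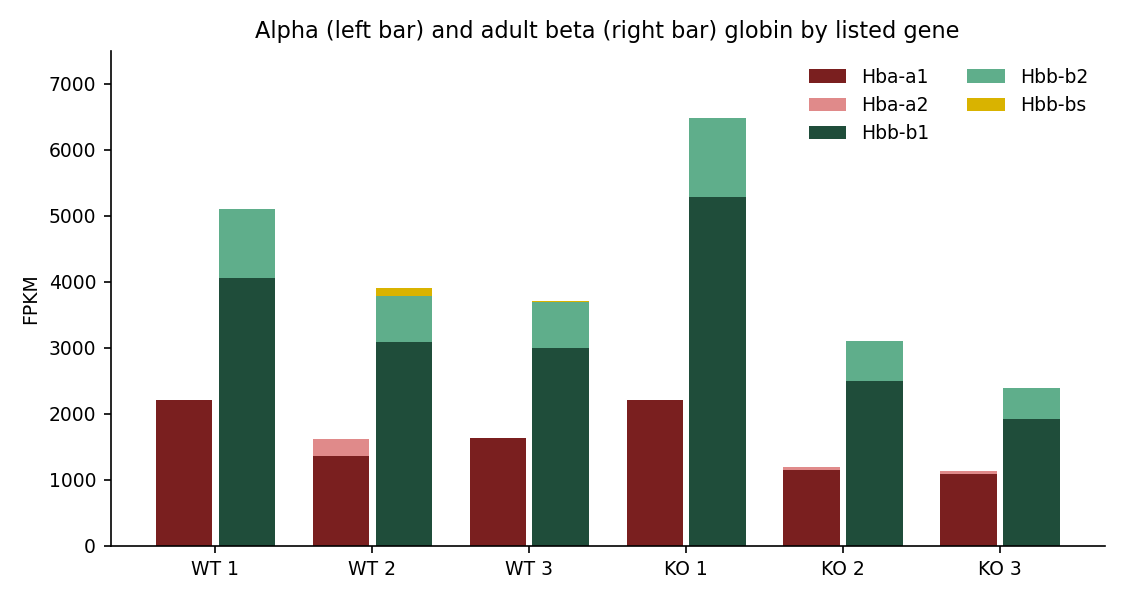
Stacked bars give the FPKM of the alpha globin genes (left bar) and the listed adult beta globin genes (right bar) in each library. WT 1 and KO 1 are highest for both chains, and *Hba-a2* is visible in WT 2, where it is 15.8% of the alpha sum.

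*Alas2*, on chrX:150547375-150570638 (plus strand, 11 exons), had 210 FPKM in WT 1, 108 FPKM in WT 2 and 124 FPKM in WT 3. It had 139 FPKM in KO 1, 99.7 FPKM in KO 2 and 84.6 FPKM in KO 3. Among *Hba-a1*, *Alas2* and *Slc4a1*, this is the gene for which WT 1 stood furthest out, at 1.52 times the next library, KO 1. WT 3 and KO 1 lay close together, as did WT 2 and KO 2. The mean was 148 ± 54.8 FPKM for the WT group and 108 ± 28.0 FPKM for the KO group (± SD, n = 3 per group), and the groups overlapped. An estimated 1300 to 4882 fragments per library lie behind these values, a counting error of at most 2.77%.

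*Slc4a1*, on chr11:102348824-102366203 (minus strand, 20 exons), was far lower. Its level was 13.3 FPKM in WT 1, 4.22 FPKM in WT 2 and 11.5 FPKM in WT 3, against 7.30 FPKM in KO 1, 9.28 FPKM in KO 2 and 5.33 FPKM in KO 3. WT 1 was 1.15 times WT 3, and all KO values lay between the lowest and the highest WT value. The mean was 9.67 ± 4.80 FPKM for the WT group and 7.30 ± 1.97 FPKM for the KO group (± SD, n = 3 per group). The order of the libraries differed from that of the globins, with KO 2 above KO 1. An estimated 169 to 687 fragments lie behind each value, a counting error of 3.81% to 7.69%.

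*Hemgn*, on chr4:46393989-46413506 (minus strand, 5 exons), was listed at 0 in all 6 libraries, where 3 fragments at its GENCODE length would give an estimated 0.11 to 0.202 FPKM. Among the 11 listed erythroid transcription factors with the erythropoietin receptor, 8 passed the filter and 3 did not. Of the 3, *Klf1* and *Gata1* were at most 1.71 and 0.616 FPKM in any library, and *Gfi1b* was listed at 0 in all. *Car1*, a carbonic anhydrase of red cells, was at most 0.423 FPKM. Of the embryonic globin genes, *Hba-x* and *Hbb-bh1* were listed at 0 in all 6 libraries, while *Hbb-y* was above 0 in all but KO 2, at most 4.76 FPKM.

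**Figure D2:**
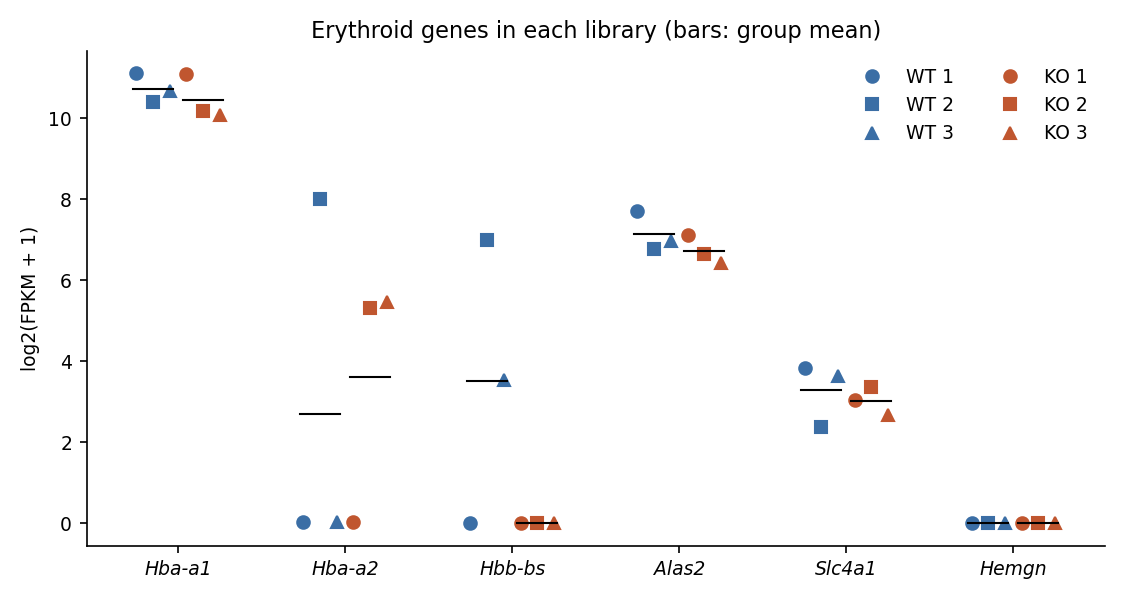
Each point is log2(FPKM + 1) of a gene in a library, with blue for WT, orange for KO, the marker for the replicate number and bars for the group means. The groups overlap for *Hba-a1*, *Alas2* and *Slc4a1*, and *Hemgn* is at 0 in all 6 libraries.

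Ratios within a library show how far the erythroid genes kept the same proportions. The ratio of beta to alpha globin FPKM was 2.30, 2.42 and 2.28 in WT libraries 1 to 3, and 2.94, 2.61 and 2.12 in KO libraries 1 to 3. It spanned 1.39-fold, less than the 1.97-fold of the alpha sum itself. *Alas2* was 6.30% (KO 1) to 9.49% (WT 1) of the alpha globin FPKM, a range of 1.51-fold. The heme enzyme and the globins thus kept closer proportions than their levels.

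*Slc4a1*, the membrane gene, kept a less even proportion. It was 0.599%, 0.262% and 0.707% of the alpha globin FPKM in WT libraries 1 to 3, and 0.332%, 0.778% and 0.474% in KO libraries 1 to 3, a range of 2.97-fold. WT 2 had the least *Slc4a1* while its globins were in the middle of the range.

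**Figure D3:**
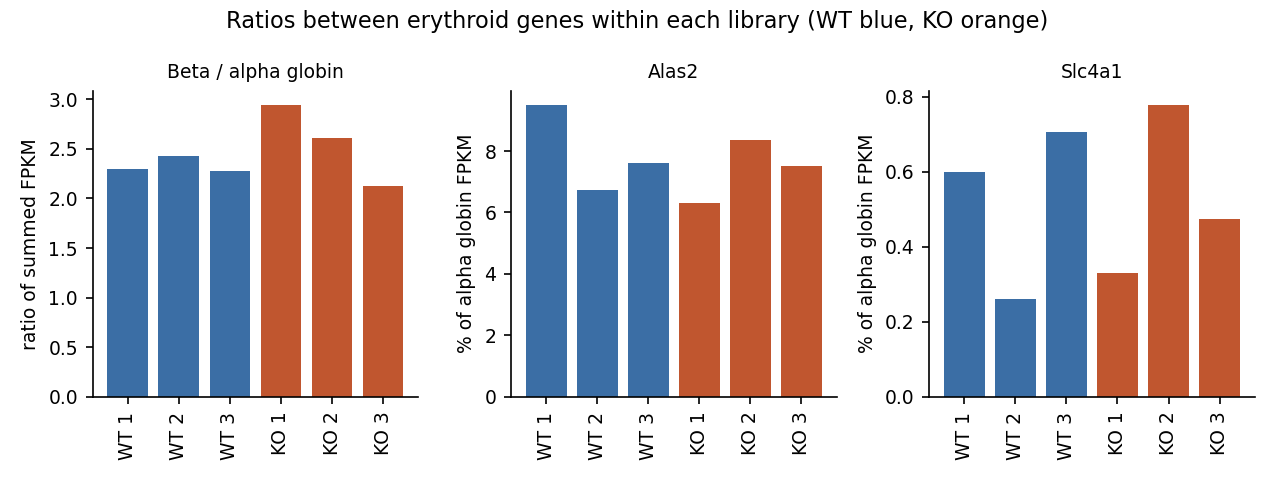
Bars give, for each library, the ratio of beta to alpha globin FPKM and the FPKM of *Alas2* and *Slc4a1* as a percentage of alpha globin FPKM, with blue for WT and orange for KO. The first 2 panels vary by 1.39-fold and 1.51-fold between libraries, and *Slc4a1* by 2.97-fold.

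The spread across libraries is given as a description, since the genes were chosen on these values. From the lowest to the highest library, log2(FPKM + 1) spanned 1.03 for *Hba-a1*, 1.30 for *Alas2* and 1.45 for *Slc4a1*, against a median of 0.89 over the 14247 genes tested. The spans of *Hba-a2* (7.96) and *Hbb-bs* (6.99) were far wider. Both are copies listed near or at 0 in at least 3 libraries.

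Because the erythroid genes were chosen for a high WT library, the following counts of them are a description from which nothing is read. WT 1 was the highest library for 3 of the 5 erythroid genes that passed the filter (*Hba-a1*, *Alas2* and *Slc4a1*; background over all genes 15.7%), and KO 1 for 0 of the 5 (background 18.6%). WT 1 and KO 1 were the highest pair of libraries for *Hba-a1* and *Alas2*, 2 of the 5 (background 5.71%). Among 63 other erythroid and heme genes they were the highest pair for 11, among them *Hbb-b1*, *Hbb-b2*, *Bpgm*, the red cell bisphosphoglycerate mutase, and *Fech*, the last enzyme of heme synthesis. The arterial smooth muscle markers had the same pair on top for all 4 of their genes, and summed to 561, 225 and 248 FPKM in WT libraries 1 to 3, and 754, 257 and 381 FPKM in KO libraries 1 to 3. *Acta2*, smooth muscle actin, had 252 FPKM in WT 1 and 345 FPKM in KO 1, against 107 to 181 FPKM in the other 4 libraries. The part of the vessel makeup in the erythroid values was not tested.

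The lists of other blood cells followed the order of the globins only in part. The 14 listed of 15 neutrophil markers summed to 17.0, 35.4 and 24.4 FPKM in WT libraries 1 to 3, and 29.6, 14.3 and 9.69 FPKM in KO libraries 1 to 3, with *Mpo*, myeloperoxidase, at 0 in all but KO 2. The 10 platelet markers, led by *Pf4*, ranged from 43.8 to 66.9 FPKM in WT mice and from 35.0 to 52.2 FPKM in KO mice. The 11 lymphocyte markers summed to 5.66 to 8.41 FPKM in WT mice and 5.23 to 11.6 FPKM in KO mice, and *Cd8a*, a T cell marker, was at 0 in all. WT 1, the library with the most alpha globin and *Alas2*, had the lowest neutrophil sum of the 3 WT libraries and the highest lymphocyte sum of them. KO 1 had the highest lymphocyte sum of all, 11.6 FPKM, as it had the most beta globin. KO 3 was lowest on the globin, neutrophil, platelet and lymphocyte sums alike. This was not particular to blood, since KO 3 was also lowest on the sums of the neuron and oligodendrocyte markers (97.7 and 109 FPKM). It was highest on the choroid plexus sum. On the endothelium, pericyte, arterial smooth muscle, astrocyte, microglia and meningeal fibroblast sums another library was lowest.

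**Figure D4:**
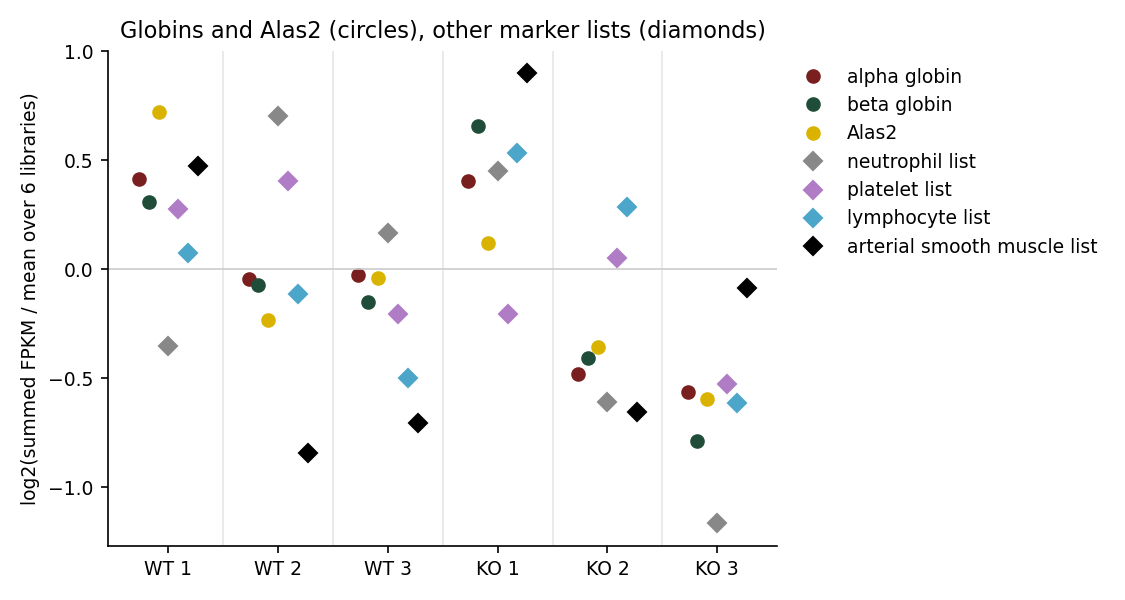
Each point is the log2 of a summed FPKM in a library over its mean in the 6 libraries, with circles for globins and *Alas2* and diamonds for lists of other cell types. Globins, *Alas2* and arterial smooth muscle genes lie above 0 in WT 1 and KO 1, and the globins and blood cell lists lie below 0 in KO 3.

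Between genotypes, the mean of log2(FPKM + 1) in KO mice minus that in WT mice was −0.28 for *Hba-a1*, −0.42 for *Alas2* and −0.26 for *Slc4a1*. Each difference was smaller than the SD within at least 1 group of 3 mice. Without WT 1 the difference was −0.14 for *Alas2* and 0.01 for *Slc4a1*, and over all libraries left out in turn that of *Hba-a1* lay between −0.61 and −0.09. For *Hba-a2* the difference was 0.92 (1.91 with a pseudocount of 0.1), and it was −0.41 without WT 1 or WT 3 and −0.01 without KO 3. *Hbb-bs* had a difference of −3.51 that rests on WT 2 and WT 3, the only libraries in which it was above 0, and its size depends on the pseudocount (−5.68 with 0.1). No p is given for these genes because they were chosen on these values.

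The remaining genes of the red cell and of heme were compared between genotypes with limma on log2(FPKM + 1), over all 14247 genes. In that comparison 838 genes (5.88%) had an unadjusted p under 0.05, 2.77% higher and 3.11% lower in KO mice, and 0 passed after Benjamini-Hochberg adjustment (smallest adjusted p from limma 0.841). Of the 63 listed erythroid and heme genes tested, 5 had an unadjusted p under 0.05, 1 higher and 4 lower in KO mice. The groups did not overlap for 8 of the 63, against 11.1% of all genes tested, with every KO mouse above in 4 (5.37% of all genes) and below in 4 (5.7%). The median log2 fold change of the 63 genes was −0.12, with 22 above and 41 below 0, and that of all genes was −0.01. With single libraries left out the count of 5 was 2 without WT 1, 1 without WT 2, 2 without WT 3, 3 without KO 1, 9 without KO 2 and 4 without KO 3.

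Of the other globins and the globin chaperone, 4 of 10 were tested, none had an unadjusted p under 0.05 and all 4 had a log2 fold change below 0 (median −0.19). *Hbb-b1* and *Hbb-b2* led by level, followed by the embryonic *Hbb-y*, at most 4.76 FPKM, and *Hbq1b*, at most 2.29 FPKM. Of the red cell membrane and skeleton genes, 11 were tested, of which 1 was higher in KO mice and 0 lower (unadjusted p under 0.05), with a median log2 fold change of −0.30. The higher one was *Tspan33*, a tetraspanin with a role in red cell formation. It had 21.8, 21.9 and 22.2 FPKM in the WT mice and 42.2, 20.9 and 53.2 FPKM in the KO mice. Its log2 fold change was 0.69 with a standard error of 0.31 (limma before adjustment p = 0.0464 and after it p = 0.841, while the exact two-sided permutation test gave p = 0.4). The high values were in KO 1 and KO 3, the libraries with the high choroid plexus markers given above, whose part in this gene was not tested. *Epb4.1*, protein 4.1 of the membrane skeleton, averaged 38.8 ± 9.95 FPKM for the WT group and 30.9 ± 4.96 FPKM for the KO group, with WT 1 highest. *Dmtn*, dematin of the same skeleton, and *Mpp1*, the membrane protein p55, had log2 fold changes of −0.10 and 0.18.

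Among 8 tested erythroid transcription factors with the erythropoietin receptor, 0 were higher and 1 was lower in KO mice (median log2 fold change 0.07). *Zfpm1*, the partner of GATA factors also called FOG1, was lower in every KO mouse than in every WT mouse, 8.33 ± 0.931 against 13.2 ± 2.24 FPKM (± SD, n = 3 per group). Its log2 fold change was −0.60 with a standard error of 0.22 (limma before adjustment p = 0.0189 and after it p = 0.841, while the exact permutation test gave p = 0.1, the smallest that 3 mice against 3 can give). *Lmo2*, a bridging protein of the erythroid factor complex that endothelium also uses, had 45.3 ± 2.18 FPKM for the WT group and 57.4 ± 2.87 FPKM for the KO group without overlap (limma p = 0.0915 before adjustment, exact permutation p = 0.1). *Ldb1*, the partner of *Lmo2* in that complex, had 43.8 ± 4.61 and 46.0 ± 5.29 FPKM in WT and KO mice, and *Bcl11a*, a repressor of embryonic globin genes that neurons also express, had 13.8 ± 6.60 and 9.62 ± 5.53 FPKM. The precursor factors *Klf1* and *Gata1* did not reach the filter.

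Of 14 tested red cell enzymes and maturation genes, 0 were higher and 1 was lower, with 11 of the 14 below 0 (median −0.14). The lower one, *Fam46c*, encodes a poly(A) polymerase that acts in red cell maturation and in other blood cells, and had 20.6 ± 3.36 FPKM for the WT group and 12.8 ± 6.80 FPKM for the KO group. The log2 fold change was −0.75 with a standard error of 0.33 (limma before adjustment p = 0.0460 and after it p = 0.841, while the exact permutation test gave p = 0.2). *Prdx2*, the red cell peroxiredoxin, was the highest of the list with 205.5 ± 20.9 FPKM for the WT group and 249 ± 72.2 FPKM for the KO group. *Bpgm* averaged 73.7 and 64.2 FPKM within a range of 49.3 to 85.8 FPKM, and *Bnip3l*, a mitophagy receptor of reticulocytes, had 57.3 ± 5.52 and 60.0 ± 7.13 FPKM in WT and KO mice.

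Of the 8 other heme synthesis genes, all were tested and none had an unadjusted p under 0.05 (median 0.06). *Urod*, *Fech* and *Alas1* had the highest levels, and *Alas1*, the housekeeping counterpart of *Alas2*, had 27.7 ± 4.93 FPKM for the WT group and 32.0 ± 5.69 FPKM for the KO group. It thus stayed below *Alas2* in every library. Of the 8 iron supply genes, 0 were higher and 1 was lower (median 0.04). *Steap3*, the ferric reductase of the transferrin cycle, had 33.3 ± 3.44 FPKM for the WT group and 23.4 ± 5.55 FPKM for the KO group without overlap, a log2 fold change of −0.52 with a standard error of 0.23 (limma before adjustment p = 0.0455 and after it p = 0.841, while the exact permutation test gave p = 0.1). With the replicate number as a block its limma p was 0.0516. *Glrx5* and *Slc25a37*, a glutaredoxin of iron-sulfur cluster assembly and mitoferrin 1, had log2 fold changes of −0.08 and −0.22. *Tfrc*, the transferrin receptor, had 100.5 FPKM in KO 2 and 25.4 to 50.9 FPKM in the other 5 libraries.

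Among 10 tested genes of heme and hemoglobin clearance, 0 were higher and 1 was lower, with 9 of the 10 below 0 (median −0.13). *Lrp1*, the receptor that takes up heme bound to hemopexin and has many other ligands, had 86.7 ± 6.77 FPKM for the WT group and 56.6 ± 10.7 FPKM for the KO group without overlap. The log2 fold change was −0.62 with a standard error of 0.20 (limma before adjustment p = 0.0124 and after it p = 0.841, while the exact permutation test gave p = 0.1). The ferritin genes *Fth1* and *Ftl1* were the highest of the list, at 1555 ± 153 and 857 ± 107 FPKM in WT mice and 1448 ± 330.0 and 788 ± 155 FPKM in KO mice. *Slc40a1*, the iron exporter ferroportin, averaged 34.7 ± 5.08 FPKM for the WT group and 34.6 ± 5.46 FPKM for the KO group. *Cd163*, the receptor for hemoglobin bound to haptoglobin on macrophages, had 9.86 FPKM in WT 1 and 2.91 to 5.72 FPKM in the other 5 libraries.

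Among 18 tested genes of neutrophils, platelets and lymphocytes, 1 had an unadjusted p under 0.05, which is 5.56% against 5.88% of all genes. It was *Ngp*, a granule protein of immature neutrophils, with 2.81 ± 1.23 FPKM for the WT group and 0.803 ± 0.268 FPKM for the KO group (log2 fold change −1.04, standard error 0.36, limma p = 0.0163, adjusted p = 0.841, exact permutation p = 0.1). The KO values of *Ngp*, 1.10, 0.741 and 0.572 FPKM, are low, as 3 fragments on a 1 kb transcript would give 0.256 to 0.469 FPKM. With a pseudocount of 0.1 its log2 fold change was −1.65. The neutrophil genes had a median log2 fold change of −0.23, the platelet genes −0.09 and the lymphocyte genes 0.26. *S100a9*, the calprotectin subunit that leads the neutrophil list with *S100a8*, ranged from 4.64 to 11.8 FPKM in WT mice and from 0.501 to 15.2 FPKM in KO mice, so the groups overlapped. *Lcn2*, lipocalin 2, reached 6.24 FPKM in WT 1 and at most 2.18 FPKM in the other 5 libraries. The platelet genes *Pf4*, *Gp1bb*, *Itga2b* and *Gp1ba* had log2 fold changes of −0.49, −0.69, −0.33 and 0.34. *Cd79a*, *Cd79b* and *Lck*, genes of antigen receptor signalling in B and T cells, had 0.41, −0.76 and 0.26 on the same scale, and none of these 7 had an unadjusted p under 0.05.

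**Figure D5:**
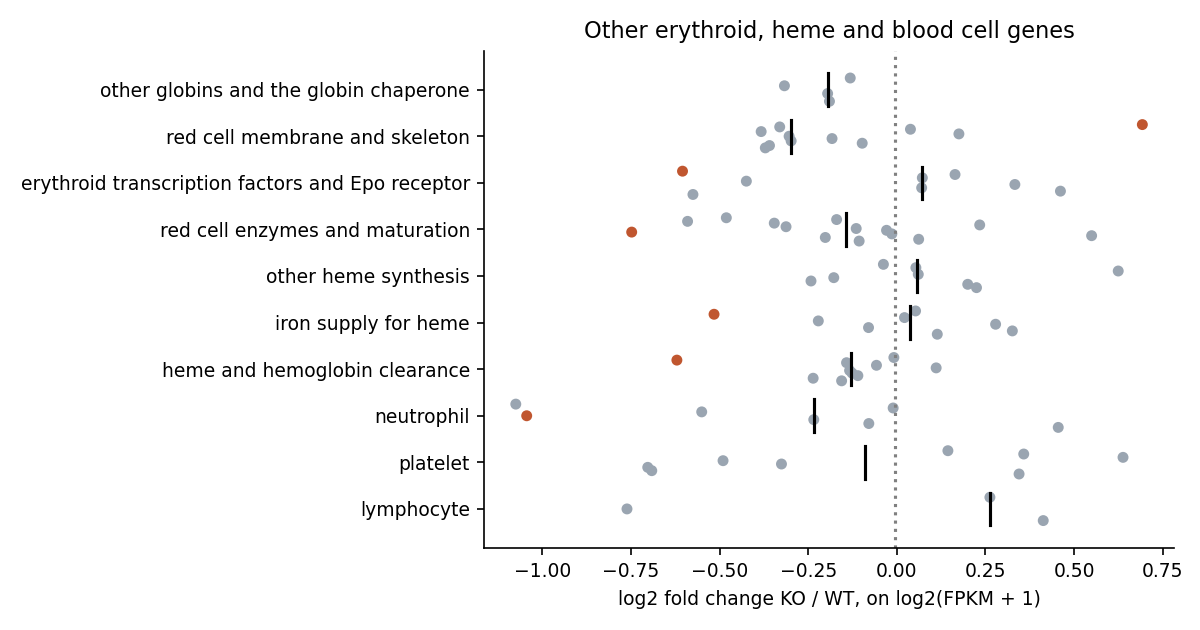
Each point is the log2 fold change of a gene (KO over WT, on log2(FPKM + 1)), in rows by list, orange where the unadjusted limma p was under 0.05 and grey otherwise, with a black bar at the list median and a dotted line at the median of all genes. Of the 63 erythroid and heme genes 5 are orange, and of the 18 blood cell genes 1.

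The genes most like the mean of the 5 tested erythroid genes were picked by Pearson's correlation of log2(FPKM + 1) over the 6 libraries, among 5760 genes with a span of at least 1. That mean was 6.91 in WT 2 and 4.27 to 5.10 in the other libraries, because *Hba-a2* and *Hbb-bs* are highest in WT 2. The closest were *Dnmt1* (r = 0.97), the maintenance DNA methyltransferase, *Aplnr* (r = 0.95), the apelin receptor, and *Foxo3* (r = 0.95), followed by *Vaultrc5*, *Vash2*, *Thbs1*, *Amelx*, *Snord49b*, *Lrrc18* and *Nmral1* (r = 0.93). These genes were likewise highest in WT 2, as *Aplnr* with 63.9 FPKM there against 23.4 to 39.4 FPKM elsewhere. None of the 10 is in the erythroid, heme or blood cell lists, and the 6 points share the libraries and their depth.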

How the data were processed

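Total RNA of isolated brain microvessels (3 mice with the WT and 3 with the KO genotype, 1 library for each) was taken up in TRIzol, made into directional libraries and read from both ends over 100 bases. The authors checked the reads, trimmed them and mapped them with TopHat, to mm10 per the submitters' processing notes, and the deposited files give FPKM for 23183 symbols. The program and annotation behind the FPKM values, and how reads shared by copies were assigned, are not given in the sources used here.

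A pseudocount of 1 was added and log2 taken, and limma 3.58.1 (R 4.3.3, trended prior variance, no scaling) was fitted to 14247 genes whose mean reached 1 FPKM, with Benjamini-Hochberg adjustment over these. Single genes also had an exact two-sided permutation test. The p-values measure the spread between 3 mice per group. The rest was done in Python 3.11.15 (pandas 2.3.3, numpy 2.4.6). Depth was estimated from the steps of values under 0.3 FPKM, with an absolute scale from 2246 genes with a single transcript of at least 1500 bases. It depends on GENCODE M21 lengths, as do the values of 1 or 3 fragments, and the authors' lengths may differ, since *Hbb-b1* and *Hbb-b2* are not in that annotation. *Hbb-bt* was not among the symbols, so beta globin was summed over *Hbb-b1*, *Hbb-b2* and *Hbb-bs*. *Epb4.1* and *Epb4.2* were matched by synonym.

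The erythroid genes and the lists were chosen with earlier results of these data known. Named genes were the erythroid genes, *Gadd45gip1*, the 4 highest of each erythroid, heme or blood cell list and those in these lists with an unadjusted p under 0.05, and the 10 most correlated genes. *Cd163*, *Acta2*, *Klf1*, *Gata1*, *Gfi1b*, *Car1*, *Hba-x*, *Hbb-bh1*, *Cldn5*, *Cdh5*, *Mpo* and *Cd8a* were named after their values were seen. Of the listed genes, 3 that were examined are not reported here, and the counts include them. The fit was tested on simulated data. The replicate numbers were not treated as pairs of mice in the main fit. Correlations of same-numbered libraries (deviations from the group means) were 0.0375, 0.0267 and 0.00159. Those of libraries with different numbers ran from −0.0733 to 0.0462. Such correlations cannot show whether the mice were paired by litter or by day of isolation. Alternatives were another pseudocount, filters, scalings, a replicate block, no trended variance and leaving out each library.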

Additional observations from a re-analysis of the deposited data

How the results depend on the processing

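The KO minus WT differences of *Hba-a2* and *Hbb-bs* moved from 0.92 to 1.91 and from −3.51 to −5.68 with a pseudocount of 0.1. Leaving out single libraries, the differences ran from −0.61 to −0.09 for *Hba-a1*, −0.41 to 3.57 for *Hba-a2*, which thus changed sign, −5.26 to −1.77 for *Hbb-bs*, −0.62 to −0.14 for *Alas2* and −0.71 to 0.01 for *Slc4a1*. Over all genes, the 838 with an unadjusted limma p under 0.05 became 450 (without WT 2) to 1871 (without KO 2), with 510 without KO 1, and the 0 with an adjusted p under 0.05 became 0 to 4 (1 without WT 3, 4 without KO 2 and 4 without KO 3). Leaving out both replicates 1, chosen after seeing the data, gave 386. The 1577 genes without overlap became 2414 to 4367 with a library left out and 4273 without both replicates 1, where fewer mice make it easier not to overlap. The 5 erythroid and heme genes became 2 with median scaling, 2 without the trended variance, 1 to 9 with a library left out and 0 without both replicates 1. The 1 blood cell gene became 2 without a filter, 0 with a mean of at least 5 FPKM, 2 with the replicate block, 2 without the trended variance, 0 to 4 with a library left out and 3 without both replicates 1. The cause was not tested. The replicate block gave 871 genes in place of 838 and also 5 erythroid and heme genes, but 2 higher and 3 lower in place of 1 and 4, without *Steap3*. The unadjusted call was lost in 9 of 16 settings for *Tspan33*, 9 of 16 for *Fam46c*, 8 of 16 for *Steap3*, 2 of 16 for *Zfpm1*, 2 of 16 for *Lrp1* and 1 of 15 for *Ngp*. Dividing by the summed FPKM moved the share of calls that were higher in KO mice from 47.1% to 38.8%. How shared reads were assigned is not given in the sources used here, and its part in *Hba-a2* and *Hbb-bs* was not tested. The part of the depth in *Hemgn* was not tested either.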

Other observations

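A second mean, over the alpha globin sum, *Alas2* and *Slc4a1*, was chosen after seeing the data so that *Hba-a2* and *Hbb-bs* do not enter as genes of their own. The split of the alpha copies can still enter through the transcript lengths used, which are not given in the sources used here. It was 7.56, 6.61 and 7.10 on the log2(FPKM + 1) scale in WT libraries 1 to 3, and 7.10, 6.75 and 6.41 in KO libraries 1 to 3. The genes most correlated with it over the 6 libraries were *Gm16861* (r = 0.99), *Fgd2* (r = 0.97), a guanine nucleotide exchange factor of immune cells, *Ntsr2* (r = 0.97), a neurotensin receptor of astrocytes, *Stard3nl*, *Crygs*, *Lcat*, *Cmtm5*, *Cyp2d22*, *Efcab6* and *Txnl4b* (r = 0.92). *Ntsr2* had 45.7 FPKM in WT 1 and 11.6 to 27.3 FPKM in the other 5 libraries. None of these 10 was among the 10 genes found with the mean over the 5 tested erythroid genes.

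Of the listed erythroid and heme genes, *Slc25a37*, mitoferrin 1, which brings iron into the mitochondria of red cell precursors, had 19.8, 14.4 and 18.8 FPKM in WT libraries 1 to 3, and 17.6, 15.8 and 11.9 FPKM in KO libraries 1 to 3. Its Pearson correlation with the second mean was 0.94 over the 6 libraries, given as a description.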
